A study of Mus musculus with 2 samples.

Results

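Fgf21 and 5 genes of its receptor system in the liver, Klb, Fgfr1, Fgfr2, Fgfr3 and Fgfr4, were compared between the livers of wild-type mice and of mice carrying a CREBH transgene. The members were chosen by symbol: every probe whose transcript accession belongs to 1 of these 6 genes was taken, which gave 11 probes. All 6 were measured on both arrays, among 13881 genes so measured of 20660 genes with a named probe. The WT group was wild-type mice on the C57B6J background. The CREBH-Tg group carried a human cDNA for the active form of CREBH (encoded by Creb3l3 in mice), with expression mainly in liver per the labels, and the labels do not name the promoter that drives it. Both groups had eaten the HFHS diet for 12 weeks, so neither group shows the genes on another diet. Total liver RNA was pooled within each genotype, each pool was hybridised to 1 one-colour Agilent array, and the labels do not state the age, sex or number of the mice in a pool. Each genotype thus has a single array, no difference could be tested, and values are described by size.

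FGF21 is a hormone that the liver secretes, best known as a signal of fasting, of dietary sugar and of cellular stress. It acts on cells that carry both an FGF receptor, a tyrosine kinase, and the co-receptor beta-Klotho, the product of Klb. The hepatocyte also reads a related gut hormone, FGF15, through FGFR4 and beta-Klotho, which lowers bile acid synthesis. Transcription of Fgf21 in liver is known to respond to PPARA with CREBH in fasting, to ATF4 in the integrated stress response and to ChREBP after sugar intake.

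The stretch of 250 bases before the annotated start is shown for Fgf21, whose signal differed most between the genotypes among the 6 genes, and for Klb and Fgfr4, the receptor genes that held a match to a searched motif. The sequences are from RefSeq, build GRCm38.p6, read 5′ to 3′ on the gene's strand, and capitals mark the motif matches. The Fgf21 stretch is chr7:45615491-45615740 on the minus strand, that of Klb is chr5:65348161-65348410 on the plus strand, and that of Fgfr4 is chr13:55152568-55152817 on the plus strand.
Fgf21: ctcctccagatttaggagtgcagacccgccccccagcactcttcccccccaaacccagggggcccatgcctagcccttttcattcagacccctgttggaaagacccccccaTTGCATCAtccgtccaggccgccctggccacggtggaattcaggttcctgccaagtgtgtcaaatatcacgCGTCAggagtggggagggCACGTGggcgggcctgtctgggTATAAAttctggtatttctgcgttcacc
Klb: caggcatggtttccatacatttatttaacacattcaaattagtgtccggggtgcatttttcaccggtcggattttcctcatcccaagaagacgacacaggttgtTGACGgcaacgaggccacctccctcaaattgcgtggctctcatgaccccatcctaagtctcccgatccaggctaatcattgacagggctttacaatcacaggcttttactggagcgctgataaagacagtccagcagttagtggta
Fgfr4: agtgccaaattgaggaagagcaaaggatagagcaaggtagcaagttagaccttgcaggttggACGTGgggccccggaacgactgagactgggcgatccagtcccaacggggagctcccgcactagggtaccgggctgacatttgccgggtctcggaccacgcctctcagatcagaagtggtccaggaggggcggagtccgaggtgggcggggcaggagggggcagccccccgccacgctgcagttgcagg

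Reading from the far end of the Fgf21 stretch, the capitals mark an ATF4-type element (TGATGCAA, here on the opposite strand) 139 to 132 bases before the start. Next come a CRE half-site (TGACG, opposite strand) at 68 to 64 bases and an E-box (CACGTG) at 50 to 45 bases. The E-box contains the short bZIP core (ACGTG) on both strands, so those matches overlap. A TATA box (TATAAA) lies 28 to 23 bases before the start. The Klb stretch held 1 CRE half-site, 146 to 142 bases before the start, and the Fgfr4 stretch held 1 bZIP core, 188 to 184 bases before it. The single Fgfr2 start and both Fgfr3 starts in the table held none of the 8 motifs searched on both strands, and Fgfr1 was not analysed here for motifs. The remaining searched motifs, the whole CRE (TGACGTCA), the nuclear receptor half-site (AGGTCA) and the PPAR-type repeat, had no match in any of the 6 stretches. Among 32851 promoters of this length, the ATF4-type element was in 0.791%, the E-box in 6.02%, the CRE half-site in 17.8%, the bZIP core in 16.6% and the TATA box in 12.4%. The whole CRE was in 1.55%, the nuclear receptor half-site in 14.0% and the PPAR-type repeat in 0.0335%. A match describes the letters only and shows no binding.

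**Figure D1:**
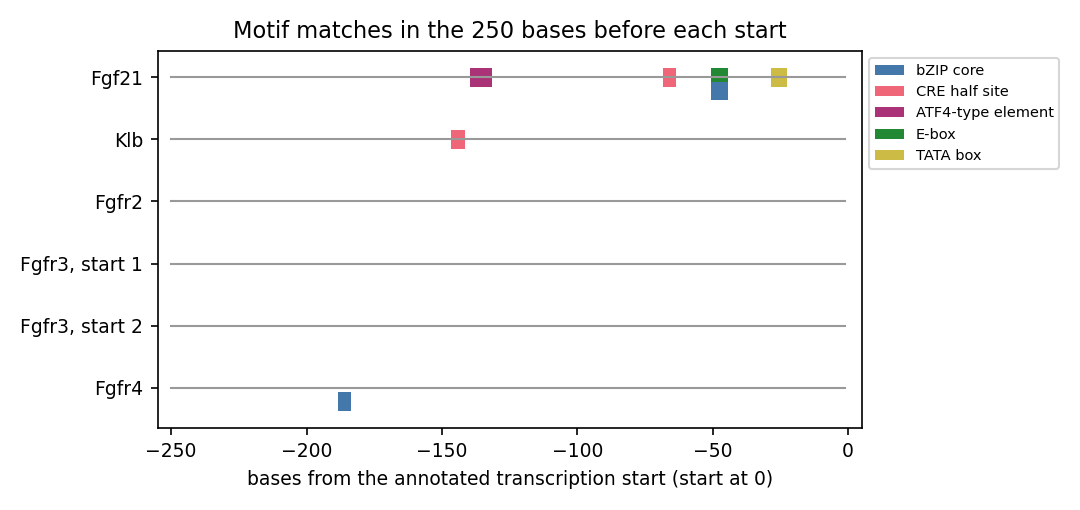
Motif matches along the 250 bases before each annotated start, with distance from the start in bases on the horizontal axis and 1 line per start; a box drawn below the line marks a bZIP core. The Fgf21 line carries 5 kinds of motif, the Klb and Fgfr4 lines 1 match each, and the lines of Fgfr2 and both Fgfr3 starts none.

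Fgf21 was far higher in the CREBH-Tg pool. Its single probe had a processed intensity of 542 in WT and 2551 in CREBH-Tg, with errors of 54.4 and 255 as the scanner software gives them. Relative to each array's 75th percentile of intensity, the log2 signal was 0.70 in WT and 3.05 in CREBH-Tg. The log2 ratio was 2.34, or 5.07-fold, with a 95% range from spot noise of 4.52 to 5.69-fold. Spot noise is the spread between copies of 1 probe on an array, and it covers neither animals nor pools. The raw spot medians were 623 and 2672 over local backgrounds of 52.0 and 60.0, well above background on both arrays. Fgf21 ranked 8 from the highest log2 ratio of 13881 genes, or 56 of 20660 with no filter on dim probes. Its log2 ratio lay between 2.16 and 2.43 over all 11 ways of processing tried. In whole liver, a change in the number of cells of a type and a change in RNA per cell cannot be told apart.

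**Figure D2:**
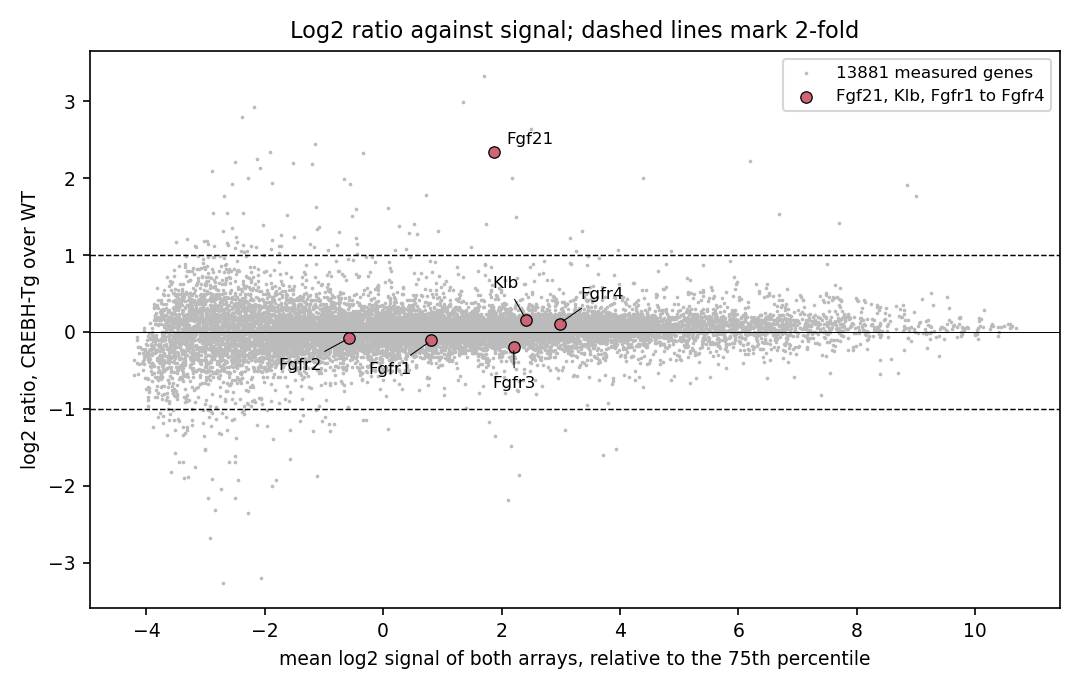
Each dot is 1 of 13881 measured genes, with the mean log2 signal of both arrays relative to the 75th percentile on the horizontal axis and the log2 ratio of CREBH-Tg over WT on the vertical axis. Fgf21 stands at 2.34, above the 2-fold line, and Klb and the 4 receptors lie in the band of the other genes between -0.19 and 0.16.

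Klb, the co-receptor without which FGF21 signals poorly, was nearly level. Its single probe read 1683 in WT and 1740 in CREBH-Tg, with scanner errors of 168 and 174. The log2 signals were 2.34 and 2.49, a log2 ratio of 0.16, or 1.11-fold higher in CREBH-Tg. That is beyond the 95% spot range of 0.095 for bright probes. The 2 intensities before scaling, however, differ by less than either scanner error, and without scaling between the arrays the ratio was 0.048. The log2 ratio of Fgf21 exceeded that of Klb by 2.19, a difference that no constant scaling of an array can move, and by 2.04 after normexp background correction.

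Fgfr4, the main FGF receptor of hepatocytes, had almost the same intensity on both arrays. Its brighter probe read 2529 in WT and 2524 in CREBH-Tg, with scanner errors of 253 and 252, and the log2 signals after scaling were 2.93 and 3.03. The scaled log2 ratio was 0.11, against -0.0028 without scaling, since the 75th percentiles themselves differ by 0.11 on the log2 scale. The second probe read 283 and 260, a log2 ratio of -0.017, so the direction for Fgfr4 depends on the scaling and on the probe.

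Fgfr3 was slightly lower in CREBH-Tg on both of its probes. The brighter probe read 1641 in WT and 1332 in CREBH-Tg, with scanner errors of 164 and 133 and log2 signals of 2.30 and 2.11. Its log2 ratio of -0.19, or 1.14-fold lower, was beyond the 95% spot range of 0.095, and it lay between -0.30 and -0.10 over the 11 ways of processing. The second probe read 137 and 117, a log2 ratio of -0.12 that is within the spot range of 0.40 for dim probes.

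Fgfr1 encodes the receptor through which FGF21 acts in adipose tissue, and its 3 probes did not share a direction. The brightest read 607 in WT and 521 in CREBH-Tg, a log2 ratio of -0.11 (log2 signals 0.87 and 0.76). The next read 423 and 436, a log2 ratio of 0.15 (log2 signals 0.35 and 0.50). The dimmest read 91.8 and 65.2, a log2 ratio of -0.38 (log2 signals -1.86 and -2.24). All 3 ratios were within the spot range of their signal class, 0.17 for the first and second and 0.40 for the third.

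Fgfr2, another receptor of the family, has a probe printed 10 times, which shows the spot noise directly. Over the 9 spots kept, processed intensities ran from 29.8 through a median of 38.5 to 55.4 in WT, and from 36.1 through 44.4 to 52.1 in CREBH-Tg. The 2 sets of spots overlapped. The log2 ratios of the single spots ran from -0.16 to 0.80 with a mean of 0.20 and an SD of 0.30, and 7 of 9 were above 0. The mean is beyond the spot range of 0.13 for 9 spots. That range rests on the SD of 0.20 over dim probes, which is smaller than the SD of these spots, so it understates the noise of this probe. These spots are copies on 1 array, not replicates of the genotype. The brighter Fgfr2 probe, spotted once, read 229 and 201, a log2 ratio of -0.082 that is within its spot range of 0.17. The ratio turned to 0.0073 under median scaling and to 0.060 when probes were averaged.

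**Figure D3:**
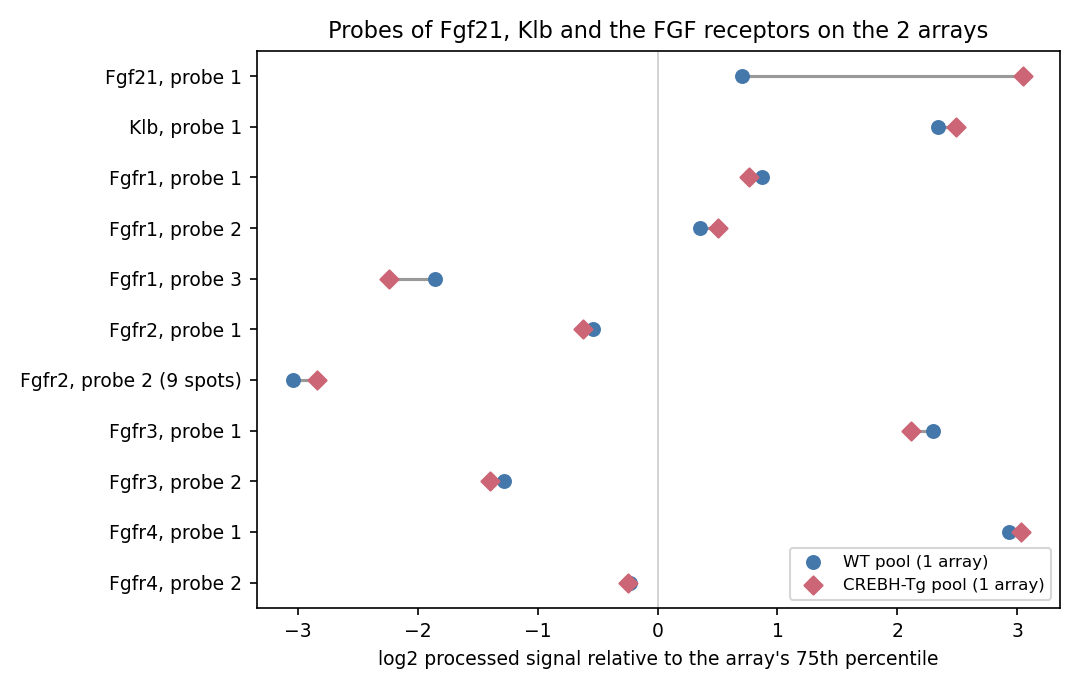
The log2 processed signal relative to the array's 75th percentile is on the horizontal axis, with 1 row per probe, a circle for the WT pool and a diamond for the CREBH-Tg pool. Fgf21 moves from 0.70 to 3.05, and in each of the other 10 rows the pair lies within 0.38 of each other.

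Of the 6 genes, 1 was at least 2-fold higher in CREBH-Tg, against 0.663% of all measured genes, and 0 were at least 2-fold lower, against 0.670%. The log2 ratio was above 0 for 3 of 6, near the 56.2% of all measured genes, so the receptor genes show no shared direction. Fgf21, Klb, Fgfr3 and Fgfr4 were beyond the 95% spot range, 4 of 6 genes, where 34.1% of all measured genes were. Fgf21 and Fgfr3 were so under all 11 ways of processing and Klb under 10, but Fgfr4 under 5 of 11, and the count was 3 of 6 under 5 of them. Without scaling the 4 were Fgf21, Fgfr1, Fgfr2 and Fgfr3. The 11 ways include the main one, and the authors' table and the 2 filters gave the same log2 ratios for all 6 genes. Averaging probes cannot move Fgf21 or Klb, which have 1 probe each. These counts of ways are therefore not counts of separate checks. The log2 ratio of Fgf21 exceeded that of Fgfr1 by 2.45, of Fgfr2 by 2.42, of Fgfr3 by 2.54 and of Fgfr4 by 2.24. The choice among 11 ways of processing moved each of the 6 genes by far less than these gaps.

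**Figure D4:**
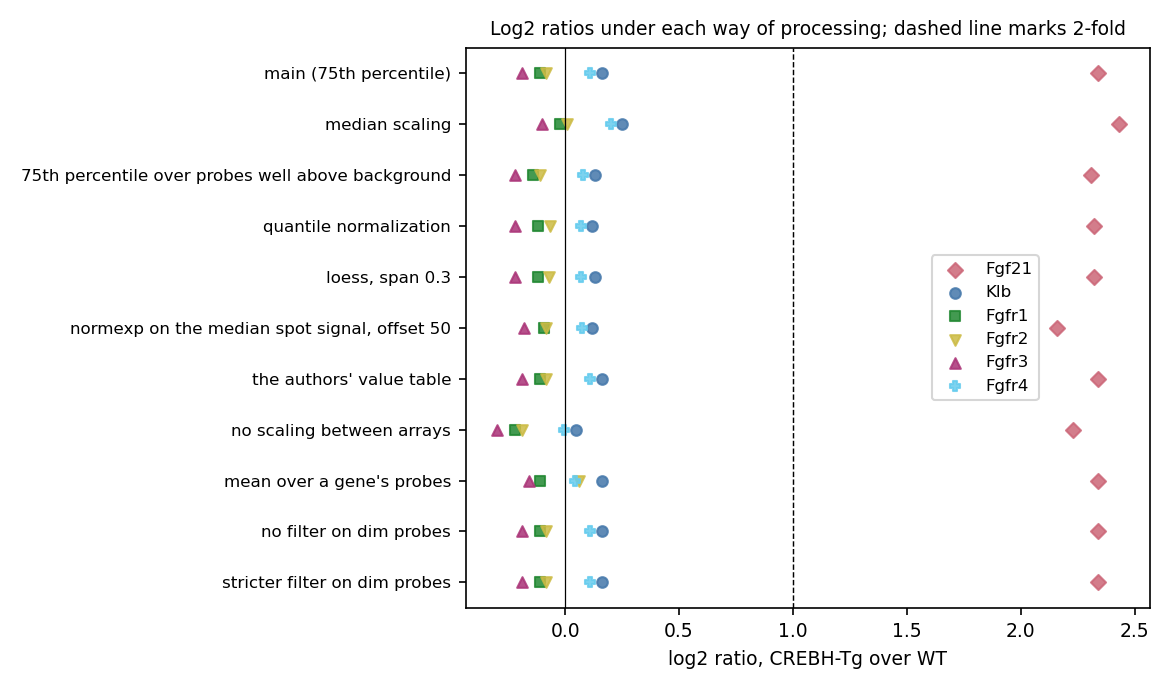
The log2 ratio of CREBH-Tg over WT is on the horizontal axis, with 1 row per way of processing and 1 marker per gene. Fgf21 stays between 2.16 and 2.43, and the other 5 genes stay between -0.30 and 0.25 in every row.

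Among the 22 FGF ligand genes, Fgf21 was the single one at least 2-fold apart. Of these, 8 were measured on both arrays and 14 were not well above background in either pool, Fgf15 among them, which is made in the ileum. The median log2 ratio of the 8 was -0.13, and 3 were above 0. Fgf23, the bone hormone of phosphate balance, had a log2 signal of 4.03 in WT and 3.46 in CREBH-Tg, a log2 ratio of -0.56. Fgf1, a ligand of all FGF receptors, was level at 4.62 and 4.66, and its log2 ratio of 0.041 turned to -0.020 under quantile normalization, -0.019 under loess, -0.068 without scaling and -0.11 when probes were averaged. The other 5 were dim, with log2 ratios of -0.63 for Fgf8 (-0.15 under normexp), -0.28 for Fgf7 (0.19 under normexp), -0.13 for Fgf11, -0.12 for Fgf14 and 0.16 for Fgf18.

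The Klotho family and the FGFR-like gene moved little. Kl, the co-receptor for FGF23, was not well above background in either pool. Lctl, a Klotho-family member, had a log2 ratio of 0.17, within the range for dim probes, and Fgfrl1, a receptor that lacks the kinase domain, had -0.19 (log2 signals 3.99 and 3.80). The median of the 3 measured genes of this list, Klb included, was 0.16, and it was -0.016 with no filter on dim probes. Of 4 genes for proteases that cleave FGF21 and for FGF-binding proteins, 3 were measured. The log2 ratios of the proteases were 0.21 for Fap and -0.017 for Dpp4 (0.072 under median scaling). That of the binding protein Fgfbp3 was 0.028 (-0.0015 under scaling over detected probes and -0.081 without scaling). All 3 were within the spot range, and their median of 0.028 carries the same exceptions as Fgfbp3.

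Genes for heparan sulfate, the sugar chain that helps paracrine FGFs bind their receptors, had a median log2 ratio of 0.024 over 17 of 20 measured. Beyond the spot range 6 were higher (35.3%, against 21.0% of all measured genes) and 0 lower (against 13.2%), and the median was below 0 under scaling over detected probes (-0.0051) and without scaling (-0.085). Gpc1, a glypican core protein, was the farthest from 0, with log2 signals of 3.16 and 4.13 and a log2 ratio of 0.96, or 1.95-fold, which passed 2-fold under median scaling (1.05). Ext2, which builds the chain, had 0.72 at a dim signal (0.28 under normexp), Hs2st1, a sulfotransferase, had 0.42 and Sulf2, which removes sulfate groups, had 0.24.

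In the pathway downstream of the receptors no measured gene was 2-fold apart, with the exception of Myc, which passed that size without scaling. For 21 of 22 signal transduction genes the median log2 ratio was 0.020, with 12 above 0 (57.1%, against 56.2% of all measured genes). Of the 21, 5 were higher beyond the spot range (23.8%, against 21.0%) and 2 lower (9.52%, against 13.2%), so the list lay near the background. The median was below 0 under 5 of 11 ways of processing, from -0.0077 under quantile normalization to -0.089 without scaling. Rps6ka1, an ERK-activated kinase, had 0.35, Mapk3, which is ERK itself, 0.22 and Rps6ka3, another such kinase, 0.20. Sos1, the exchange factor that activates RAS, had -0.44 at a dim signal (-0.12 under normexp).

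Genes that ERK signalling induces, or that damp it, had a median of 0.062 over 15 of 20 measured, or -0.047 without scaling, with 8 above 0 (53.3%, against 56.2% of all measured genes). Spot noise was exceeded by 4 higher genes (26.7%, against 21.0%) and 1 lower gene (6.67%, against 13.2%). Egr1, an early response gene, went from a log2 signal of 2.57 to 3.06, a log2 ratio of 0.49. Fos had 0.39, and Ier3 had 0.62 at a dim signal. Myc was lower, with a log2 ratio of -0.96 at a dim signal that was -0.43 under normexp and -1.07 without scaling.

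Of 24 transcription factors known to act on Fgf21, all were measured and 13 were above 0 (54.2%, against 56.2% of all measured genes). Beyond the spot range 6 were higher (25.0%, against 21.0%) and 5 lower (20.8%, against 13.2%), and the median log2 ratio was 0.046. That median was -0.020 under quantile normalization, -0.010 under loess and -0.063 without scaling. Mouse Creb3l3 read the same on both arrays, 6.97 in WT and 6.97 in CREBH-Tg, a log2 ratio of -0.0041. The transgene is the human cDNA, and whether this mouse probe reads it was not tested, so the probe does not check the genotype labels. Nr4a1, an orphan nuclear receptor, was 2.10-fold higher (log2 signals 3.44 and 4.51), a log2 ratio of 1.07 that was 0.96, under 2-fold, without scaling. Atf5, a stress-response factor, had 0.57 and Nfil3, a circadian repressor, had 0.43. Ppargc1a, a coactivator of oxidative metabolism, had -0.42. The main probe of Mlxip, a paralog of ChREBP, was 2.54-fold lower at a dim signal, a log2 ratio of -1.35 that was -0.47 under normexp. Its second probe had -0.058, and the mean over both probes was -0.70.

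Known targets of these factors differed in direction from list to list. Of 22 PPARA targets, which include Fgf21, 18 were above 0 (81.8%, against 56.2% of all measured genes). In all, 12 were higher (54.5%, against 21.0%) and 2 lower (9.09%, against 13.2%) by more than the spot range. Of the 22, 19 were in the brightest signal class, where that range is narrowest. The median was 0.11, or 0.10 without Fgf21. Cyp4a10 and Cyp4a14, which encode fatty acid hydroxylases, had log2 ratios of 0.63 and 0.48, Vnn1, a pantetheinase, had 0.47 and Bdh1, of ketone body metabolism, had 0.36. Fgf21 was the single PPARA target at least 2-fold apart. Without scaling between the arrays the median of this list was 0.0025.

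Of 18 measured ATF4 targets of the integrated stress response, among 22 listed, 14 were above 0 (77.8%, against 56.2% of all measured genes). Beyond the spot range 11 were higher (61.1%, against 21.0%) and 2 lower (11.1%, against 13.2%), and the median log2 ratio of 0.21 stayed between 0.10 and 0.30 over the 11 ways of processing. Atf3, a stress-induced repressor, had log2 signals of 1.28 and 2.15, a log2 ratio of 0.87. Chac1, which degrades glutathione, had 0.74 and Trib3, a pseudokinase that inhibits ATF4, had 0.67. Asns, asparagine synthetase and a classic ATF4 target, went the other way, from -0.10 to -1.08, a log2 ratio of -0.98 that was past 2-fold under scaling over detected probes (-1.01) and without scaling (-1.09). Mthfd2, not among those measured, was well above background in CREBH-Tg alone, with log2 signals of -3.81 and -2.63, a bound of 2.26-fold. Some dim genes of the list had probes that differed. The log2 ratios ran from -0.35 to 1.06 over the probes of Slc7a5, from -0.23 to 0.42 for Psat1 and from 0.10 to 0.69 for Phgdh. Those of Vldlr, at a middle signal, ran from 0.39 to 0.45. The log2 ratio of Atf4 itself was 0.059, within the spot range.

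The ATF4-type element seen in the Fgf21 stretch was in 5 of the 20 genes of this list with a promoter in the table. The 4 measured ones had log2 ratios of 0.87 for Atf3, 0.74 for Chac1, 0.52 for Nupr1 and 0.45 for Vldlr. The 12 measured genes of the list without the element ran from -0.98 for Asns to 0.67 for Trib3, with a median of 0.14 and 9 above 0. Here, without the element means only that the exact letters TGATGCAA were absent from the searched stretch. Other forms of the site and sites elsewhere were not searched, so the split does not separate genes with and without an ATF4 site. Of the 11063 measured genes with a promoter in the table, 87 had the element, with a median log2 ratio of 0.048 against 0.027 for the 10976 without it. Of the 87, 2 (2.30%) were 2-fold or more higher and 0 lower by as much, against 72 (0.656%) and 72 of those without it. These 2 were Fgf21 itself, the gene that prompted the search, and Pi16, at a dim signal with a log2 ratio of 1.19. These counts are a description, and the part of the element in the Fgf21 result was not tested.

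Most ChREBP targets, among them the genes of sugar-driven lipogenesis, lay below 0. All 16 were measured, and 12 were below 0 and 4 above it (25.0%, against 56.2% of all measured genes). Beyond the spot range 10 were lower (62.5%, against 13.2%) and 2 higher (12.5%, against 21.0%), and the median of -0.25 stayed below 0 under all 11 ways of processing (-0.36 to -0.16). Of the 16, 14 were in the brightest signal class, where the spot range is narrowest. Fasn, fatty acid synthase, had log2 signals of 3.07 and 2.57, a log2 ratio of -0.50. Acaca and Acacb, the acetyl-CoA carboxylases, had -0.42 and -0.37, and Elovl6, a fatty acid elongase, had -0.42. The 2 higher ones were G6pc, of glucose release, with 0.22, and Gpd1, of glycerol phosphate synthesis, with 0.13, both named after their values were seen. Mlxipl, which encodes ChREBP, had -0.31. The part of these factors in the Fgf21 result was not tested.

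**Figure D5:**
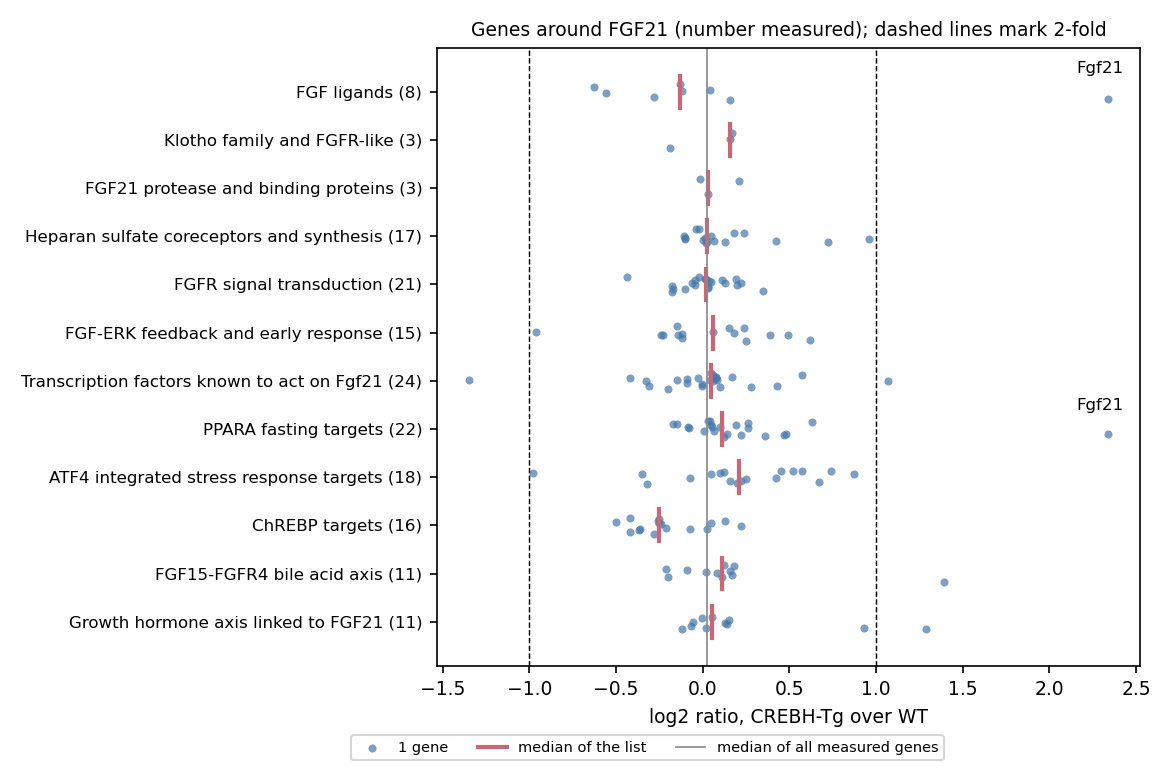
The log2 ratio of CREBH-Tg over WT is on the horizontal axis, with 1 row for each of the 12 pathway lists and its number of measured genes, marker lists left out; points are genes, the thick bar is the list's median and the thin line is the median of all measured genes, 0.027. Fgf21 lies at 2.34, to the right of every other point drawn, and the ChREBP targets have the lowest median, -0.25.

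In the bile acid axis that FGF15 controls through FGFR4 and beta-Klotho, the median log2 ratio was 0.11 over 11 of 12 measured genes, or 0.0053 without scaling, with 8 above 0 (72.7%, against 56.2% of all measured genes). Beyond the spot range 6 were higher (54.5%, against 21.0%) and 2 lower (18.2%, against 13.2%), and 9 of the 11 were in the brightest signal class, where that range is narrowest. Cyp7a1, the rate-limiting enzyme of bile acid synthesis, had a log2 ratio of 0.084, within the spot range, and Cyp8b1, which sets the share of cholic acid, had 0.17. Cyp7b1, of the alternative route of synthesis, had -0.21, and Nr1h4, the bile acid receptor FXR, had -0.20. Slc51b, a subunit of the basolateral bile acid exporter, was 2.62-fold higher at a dim signal, a log2 ratio of 1.39 that was 0.90, under 2-fold, after normexp.

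FGF21 is known to dampen growth hormone signalling in liver. Of 11 genes of that axis, all were measured and 7 were above 0 (63.6%, against 56.2% of all measured genes). Outside the spot range 4 were higher (36.4%, against 21.0%) and 1 lower (9.09%, against 13.2%), and the median was 0.052 (-0.057 without scaling). Socs2, an inhibitor of growth hormone signalling that the hormone itself induces, was 2.45-fold higher, with log2 signals of -0.21 and 1.08 and log2 ratios of 1.21 to 1.35 over 3 probes. Igfbp2, an IGF-binding protein, was 1.90-fold higher, with log2 ratios of 0.93 and 1.02 on its 2 probes, and it passed 2-fold under median scaling (1.02) and normexp (1.03). Igf1 itself, with 4 probes, was level at -0.059. Stat5b, which carries the growth hormone signal, had 0.15, and Igfbp3 had 0.14.

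With predicted genes and clones left out, the 5 genes of the same signal class nearest to Fgf21 in log2 ratio were Bcl2l14, Anxa8, Lamb3, Lrif1 and Slc13a5. Bcl2l14, of the BCL2 family, had 2.33, or 0.0080 from Fgf21, but 1.82 under normexp, where Fgf21 had 2.16. Anxa8, an annexin, had 1.99 (1.40 when probes were averaged), Lamb3, a laminin chain, had 2.99, Lrif1 had 1.61 and Slc13a5, the hepatic citrate transporter, had 1.60. This likeness rests on 2 arrays and is a description.

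Markers of other cells were read beside Fgf21, which adipose and pancreas also make. Of 9 adipocyte markers, 7 were measured with a median log2 ratio of 0.28, and the log2 of their summed signal was 4.09 in WT and 4.32 in CREBH-Tg. That sum comes mostly from Pparg, Fabp4, Plin4 and Cfd, and the dim markers add little to it. The log2 ratio was 2.21 for Adipoq, 1.55 for Retn and -1.88 for Cidea, all at dim signals, and under normexp these ratios were 1.0, 0.79 and -1.14. Lep and Plin1 were well above background in CREBH-Tg alone. Of 9 exocrine pancreas markers, 3 were measured, with summed log2 signals of 1.45 and 1.55 that come mostly from Ctrb1. Cela1 had a log2 ratio of 0.99 at a dim signal (0.47 under normexp and 1.08 under median scaling), Cel 0.11 and Ctrb1 0.030. Cela2a was well above background in CREBH-Tg alone, 1.27-fold over the WT limit. Cela3b, Cpa1, Cpb1, Prss2 and Pnlip were not well above background in either pool. The part of these cells in the Fgf21 result was not tested.

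The hepatocyte markers matched the labelled tissue: 9 of 9 were measured, with summed log2 signals of 12.5 and 12.6 and Alb at 10.59 and 10.67. Summed log2 signals of the other marker lists were 1.95 and 1.54 for cholangiocytes (7 of 8 measured), 6.76 and 6.90 for endothelium (9 of 9), 7.24 and 7.27 for stellate cells (10 of 10) and 7.38 and 7.26 for macrophages (8 of 9). For lymphocytes they were 3.74 and 3.87 (8 of 9) and for blood 8.97 and 8.95 (6 of 8). Such sums come mostly from the brightest genes of a list, so level sums do not show level dim markers. Log2 ratios were above 0 for 7 lymphocyte markers and below 0 for 1, against 1 and 6 for cholangiocytes. Cd3d, a dim lymphocyte marker, was at least 2-fold higher, but 0.62 under normexp. Marco, of macrophages, was 1.94-fold lower. Both genes were named after their values were seen. The arrays had 55.4% of spots well above background in WT and 58.3% in CREBH-Tg, with 0 saturated spots.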

How the data were processed

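Pooled liver RNA of each genotype was labelled with Cy3 as cRNA, per the labels' protocols, and read with Agilent Feature Extraction 10.10.1.1, per the file headers, which place the probes on mm9. Per the file headers, the processed signal they hold is a background-subtracted intensity, with no scaling across arrays. The authors' deposited value table equals it times 2.59 (WT) and 2.68 (CREBH-Tg).

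Control spots and 300 outlier spots of 59305 were left out. The log2 of the deposited processed signal minus each array's 75th percentile (333 and 309) was averaged over the spots of a probe. A probe counted as measured with over 50% of its spots well above background on both arrays, and a gene took its brightest such probe. Accessions matched to the RefSeq table of GRCm38.p6 named 27233 of 55677 probes. Spot noise is 1.96 SD over 276 probes spotted at least 5 times, in 3 signal classes. A list with many bright genes can pass this range more readily than all measured genes do. The called size was 2-fold. The members and gene lists were chosen with earlier results of these data known. Of the FGF family and Klotho lists all detected genes were named. Of other pathway lists up to 4 genes farthest from 0 and those 2-fold apart were named, with some others chosen after their values were seen. The 5 genes nearest to Fgf21 were named too, with predicted genes and clones left out. The alternatives were 4 other scalings, no scaling (added after seeing the data), normexp with an offset of 50, the authors' table, probe averaging, 2 filters and 2 thresholds. The steps were tested on simulated data. Python 3.11.15, R 4.3.3 and limma 3.58.1 were used.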

Additional observations from a re-analysis of the deposited data

How the results depend on the processing

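The log2 ratio of Fgf21 was 2.43 under median scaling, 2.16 under normexp and 2.23 without scaling, and Fgf21 was the 1 gene of the 6 past the threshold under every alternative. Genes at least 2-fold higher, 92, numbered 42 under normexp, 605 with no filter on dim probes, 323 at 1.5-fold and 30 at 3-fold. Genes at least 2-fold lower, 93, numbered 17, 782, 309 and 26 in the same order. The share of calls that were higher, 49.7%, was 59.9% under median scaling, 71.2% under normexp and 38.1% without scaling. Without scaling the median of all genes moved by -0.11, and under the other alternatives by at most 0.089. The log2 ratios of the other 5 genes moved by less than 1 SD of single-spot log2 ratios, a tighter bound than the spot range, in 38 of 50 cases. The 50 include the authors' table and the 2 filters, which left these genes unchanged. The causes of these moves were not tested. No paired analysis was possible because each genotype has 1 array, and no replicate could be left out. The single array per pool limits all values, and dim probes have the widest spot range, 0.40.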
